A study of Mus musculus with 6 samples.

Results

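The 9 enzymes considered here break down fatty acids by beta-oxidation: Cpt2, Acadl, Acadm, Acadvl, Hadha, Hadhb, Acaa2 and Etfdh in mitochondria, and Ehhadh in peroxisomes. They were followed in adrenal glands of a hypertensive mouse strain, BPH, and a hypotensive strain, BPL. All animals were male and 12 weeks old, each strain was represented by 3 biotin-labelled Affymetrix arrays of total RNA, and the labels name no treatment, allele or transgene. Whether each array carries a single animal or a pool is not stated in the labels, and the p-values below therefore cover only the variation among these 6 samples, technical variation included. BPH and BPL are inbred lines that differ across the genome, so strain and blood pressure cannot be told apart. Members were all probe sets whose only gene symbol is one of the 9 names. This gave 10 probe sets for 8 genes, out of 10833 probe sets for 8251 genes with 1 symbol. Hadha had no such probe set and was not analysed here. Probe sets in the dimmest 40% were left out of the test, which left 7 probe sets for 7 members (Cpt2, Acadl, Acadm, Hadhb, Acaa2, Etfdh and Ehhadh).

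In mitochondrial beta-oxidation, long-chain fatty acids enter the matrix as carnitine esters, and Cpt2 turns them back into acyl-CoA. Acyl-CoA dehydrogenases then remove electrons, the trifunctional protein (Hadha and Hadhb) carries out the next steps on long chains, and a thiolase releases acetyl-CoA. The electrons travel through electron transfer flavoprotein and its dehydrogenase, Etfdh, to the respiratory chain. Peroxisomes run a parallel pathway with separate enzymes, among them the bifunctional enzyme Ehhadh. Brown fat, heart, liver and oxidative muscle use the mitochondrial pathway heavily, and PPAR alpha is a known activator of both sets of genes.

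The promoters of 4 members are shown because Hadhb shares its upstream region with the gene of its partner subunit, Etfdh and Acadm hold a motif in common, and Ehhadh is the peroxisomal member. Windows were available for 8 of the 9 listed genes, all but Acaa2. Each window holds the 250 bases before the gene's start in RefSeq on assembly GRCm38.p6, 5′ to 3′ on the gene's strand. Capitals mark matches to GCATGCGC on either strand, the core of the motif of nuclear respiratory factor 1 (NRF1).
Hadhb: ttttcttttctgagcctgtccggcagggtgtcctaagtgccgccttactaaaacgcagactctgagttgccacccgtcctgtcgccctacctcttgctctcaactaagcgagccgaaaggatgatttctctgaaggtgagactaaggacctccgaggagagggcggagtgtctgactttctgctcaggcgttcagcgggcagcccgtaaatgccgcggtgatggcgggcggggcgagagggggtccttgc
Etfdh: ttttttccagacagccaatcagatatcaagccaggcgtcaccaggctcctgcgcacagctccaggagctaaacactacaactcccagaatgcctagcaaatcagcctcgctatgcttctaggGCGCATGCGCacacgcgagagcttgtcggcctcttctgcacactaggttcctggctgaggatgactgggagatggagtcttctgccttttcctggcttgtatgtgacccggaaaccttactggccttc
Acadm: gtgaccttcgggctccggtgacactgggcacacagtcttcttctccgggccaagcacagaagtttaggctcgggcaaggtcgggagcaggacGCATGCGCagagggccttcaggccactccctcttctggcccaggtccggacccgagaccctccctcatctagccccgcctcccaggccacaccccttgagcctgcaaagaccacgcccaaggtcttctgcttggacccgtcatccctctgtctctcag
Ehhadh: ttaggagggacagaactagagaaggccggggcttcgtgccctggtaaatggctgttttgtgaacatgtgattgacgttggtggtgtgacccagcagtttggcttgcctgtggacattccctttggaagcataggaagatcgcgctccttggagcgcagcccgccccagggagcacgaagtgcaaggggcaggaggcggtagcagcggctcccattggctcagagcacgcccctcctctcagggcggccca
The Hadhb window lies at chr5:30155003-30155252 on the plus strand, directly upstream of the first exon. Hadha starts on the opposite strand 273 bases away, and the upstream windows of the 2 genes share 228 bases. The Etfdh window lies at chr3:79628768-79629017, the Acadm window at chr3:153944644-153944893 and the Ehhadh window at chr16:21787835-21788084, all on the minus strand. Among the 8 genes this core was found in Etfdh and Acadm, and it was present in 2.26% of 32851 windows of this length. In Acadm it lies 158 to 151 bases before the start. In Etfdh it occurs once on each strand, and the overlapping matches span 128 to 119 bases before the start. The motif TCAAGGTCA of estrogen-related receptors, searched on both strands, was not found in the 8 windows and was present in 0.387% of all windows. The direct repeat bound by PPAR receptors, AGGNCA followed after 1 base by AGGNCA, was likewise not found in the 8 and was present in 0.338% of all. GC content was 49.6% to 68% in the 8 windows, against a median of 52.4% over all.

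Etfdh, Hadhb, Cpt2, Acaa2 and Ehhadh had higher signals on every BPL array than on any BPH array, Acadl overlapped between the strains, and Acadm was on average higher in BPH. None of these differences passed limma's test after Benjamini-Hochberg adjustment over 7453 probe sets: 0 of the 7 tested members were called, against 0.926% of all tested probe sets called lower in BPH and 3.18% called higher (4.11% in either direction). At an unadjusted p under 0.05, 5 members were lower and 0 higher, against 6.4% and 14.2% of all tested probe sets. The smallest adjusted p was 0.055, for Ehhadh, which passed the filter only through its BPL signal. The median log2 difference of the 7, BPH minus BPL, was -0.66, and that of all tested probe sets was 0.08. With the authors' own scaling, the median of all tested probe sets was -0.02 and that of the members -0.77, and after quantile normalization they were 0.00 and -0.81. All 3 BPL arrays lay above all 3 BPH arrays for 5 of the 7 members and for 7.97% of all tested probe sets, and the reverse held for 0 members and for 19.7% of all. A log2 difference of -0.5 or lower was found for 4 members (Cpt2, Hadhb, Etfdh and Ehhadh) and for 6.25% of all. The rule does not use measured values, but the members were put together with earlier results of these data in view.

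**Figure D1:**
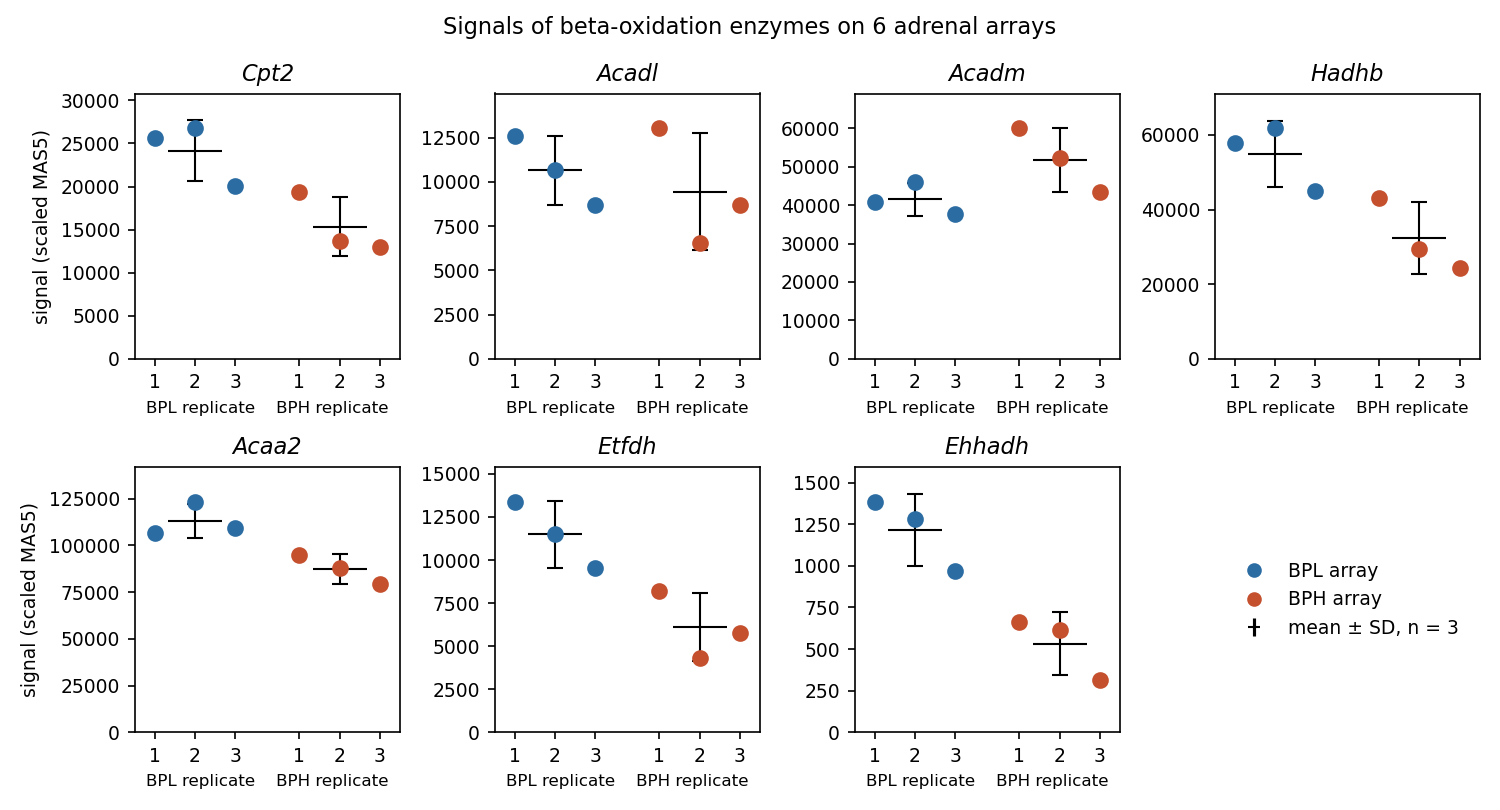
Signal (linear, scaled MAS5 units, axis from 0) of the 7 tested beta-oxidation enzymes on each BPL array (blue) and BPH array (orange), with the mean and SD of 3 arrays in black. BPH replicate 1 is the highest BPH array in all 7 panels, and only Acadl and Acadm overlap between the strains.

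The first member in the order of the pathway is Cpt2, the carnitine palmitoyltransferase of the inner mitochondrial membrane. Its signals were 25602, 26781 and 20110 in BPL replicates 1, 2 and 3 and 19317, 13728 and 13034 in the BPH replicates. The groups did not overlap, but the lowest BPL array was only 1.04 times the highest BPH array. The log2 difference was -0.66 ± 0.20 (SE, limma adjusted p = 0.12). A second Cpt2 probe set was dim, at 27.6 to 156 on all 6 arrays, and was not tested.

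The acyl-CoA dehydrogenases catalyse the first step of each cycle and differ in the chain length they prefer. Acadm, the medium-chain enzyme, had signals of 40885, 45952 and 37562 in BPL and of 60025, 52120 and 43360 in BPH. BPL replicate 2 lay above BPH replicate 3, so the strains overlapped, and the log2 difference was 0.31 ± 0.18 (limma adjusted p = 0.34). Its 95% interval ran from -0.09 to 0.71. Acadl, the long-chain enzyme, had signals of 12566, 10648 and 8696 in BPL and of 13031, 6556 and 8701 in BPH. The highest and the lowest of its 6 values were both BPH arrays. The log2 difference was -0.21 ± 0.26 (limma adjusted p = 0.68), with a 95% interval from -0.80 to 0.38. It was 0.018 without BPH replicate 2. Acadvl, the very-long-chain enzyme of the inner membrane, was represented by a pair of dim probe sets, at 28.5 to 138 and at 44.2 to 317, in the lowest 4.11% and 9.88% of probe sets by mean log2 signal. Neither was tested, and over the 6 arrays they correlated at r = -0.63, so no strain pattern was read from them.

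Hadhb is the thiolase-bearing beta subunit of the trifunctional protein, and its gene faces Hadha across the region printed above. Signals of Hadhb were 57795, 61803 and 44936 in BPL and 43124, 29409 and 24439 in BPH. Every BPL array lay above every BPH array, by a factor of 1.04 between the nearest, BPL replicate 3 and BPH replicate 1. The log2 difference was -0.79 ± 0.23 (limma adjusted p = 0.11), and BPL adrenals averaged 1.70 times the BPH signal. Acaa2, the mitochondrial thiolase that ends each cycle on shorter chains, had signals of 106757, 123355 and 109216 in BPL and of 94933, 88037 and 79075 in BPH. It had the smallest spread of the members, with a coefficient of variation of 7.92% in BPL and 9.10% in BPH. Its log2 difference was -0.37 ± 0.15 (limma adjusted p = 0.22). Acaa2 stood at percentile 99.9 of mean log2 signal, Acadm at 99.3 and Hadhb at 99.0. Bright probe sets can saturate and so understate a difference, which was not tested for any of them.

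Etfdh passes the electrons of all the acyl-CoA dehydrogenases on to ubiquinone. Its signals were 13388, 11497 and 9554 in BPL and 8202, 4325 and 5778 in BPH. The strains did not overlap, and the BPL mean was 1.88 times the BPH mean. The log2 difference was -0.92 ± 0.24 (limma adjusted p = 0.080), with a 95% interval from -1.48 to -0.37. Etfdh was called lower in 3 of the alternative settings: with a pseudocount 4 times higher (limma adjusted p = 0.042), with a stricter filter (0.029) and with a trended and robust variance (0.033). Hadhb was called after quantile normalization (limma adjusted p = 0.048) and with the stricter filter (0.049).

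Ehhadh, the only peroxisomal member, joins the hydratase and dehydrogenase steps of the peroxisomal cycle in a single protein. It had signals of 1386, 1284 and 972 in BPL and of 663, 616 and 315 in BPH. The strains did not overlap, and the nearest arrays, BPL replicate 3 and BPH replicate 1, differed by a factor of 1.47. The BPL mean was 2.29 times the BPH mean. The log2 difference was -0.97 ± 0.23 (limma adjusted p = 0.055), with a 95% interval from -1.50 to -0.45. Ehhadh passed the filter only through its BPL signal and was not tested with the stricter filter. It was called with the authors' scaling (limma adjusted p = 0.042), and also without BPL replicate 3 (0.048). Over the other arrays left out in turn, the adjusted p of Ehhadh was above 0.05.

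**Figure D2:**
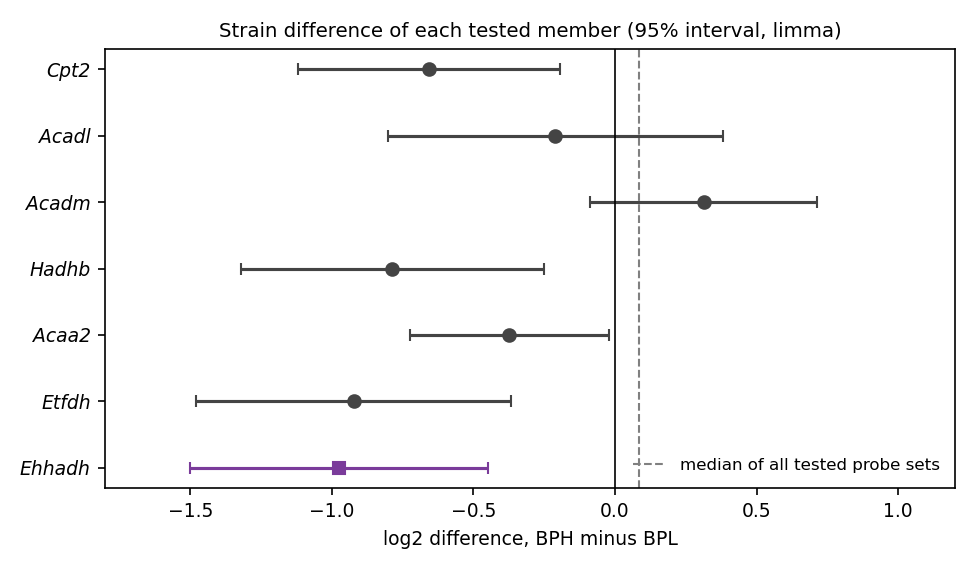
Log2 difference, BPH minus BPL, of each tested member (points) with its 95% interval from limma (bars), mitochondrial members in grey and Ehhadh as a purple square. The intervals of Acadl and Acadm include 0, and the other 5 lie below it before adjustment for the number of probe sets.

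Acadm was the only tested member with a positive difference, and its relation to the others is given here array by array. It was taken as the denominator for that reason, so the signs of these ratios restate its difference and are a description only. The log2 ratio of a member to Acadm on the same array does not depend on how arrays are scaled, apart from the pseudocount. For all 6 other tested members this ratio was higher on every BPL array than on any BPH array. The same was true of 23.2% of the 7452 other tested probe sets. The difference between the strains in this ratio was -1.29 for Ehhadh, -1.24 for Etfdh, -1.10 for Hadhb, -0.97 for Cpt2, -0.69 for Acaa2 and -0.52 for Acadl. For Hadhb the ratio, centred on its mean, was 0.65, 0.58 and 0.41 in BPL and -0.32, -0.66 and -0.67 in BPH. For Acadl it was 0.53, 0.13 and 0.13 against 0.03, -0.74 and -0.08, the narrowest separation of the 6. The 6 ratios share their denominator and the members' common array pattern (median pairwise r = 0.77), so they are not independent of each other.

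The arrays of a strain also differed from each other in a shared order. BPH replicate 1 was the highest BPH array for 7 of 7 tested members, and for 45.3% of all tested probe sets. BPL replicate 3 was the lowest BPL array for 6 of the 7, all but Acaa2, and for 25.2% of all. Among the 6 arrays, BPL replicate 2 was highest for Cpt2, Hadhb and Acaa2, BPL replicate 1 for Etfdh and Ehhadh, and BPH replicate 1 for Acadl and Acadm. BPH replicate 3 was lowest for 4 members and BPH replicate 2 for Acadl and Etfdh. The mean centred log2 level of the 6 mitochondrial members was 0.31, 0.33 and 0.02 in BPL replicates 1, 2 and 3 and 0.13, -0.40 and -0.39 in the BPH replicates. On this mean BPH replicate 1 lay above BPL replicate 3, so the strains overlapped.

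Ehhadh had a larger difference than the mean of the mitochondrial members, but its place among them depended on the setting. Its centred log2 level was 0.66, 0.57 and 0.23 in BPL and -0.21, -0.29 and -0.95 in BPH. The mitochondrial mean minus Ehhadh was -0.35, -0.24 and -0.21 in BPL and 0.35, -0.11 and 0.56 in BPH. Its strain means were -0.27 ± 0.07 and 0.27 ± 0.34 (SD, n = 3), and the arrays did not overlap, BPH replicate 2 being the nearest to BPL. This gap of 0.53 between the mitochondrial mean and Ehhadh rests on 1 peroxisomal gene and is not a difference between the compartments. The gap depended on the pseudocount, since Ehhadh is far dimmer. It was 0.18 with a pseudocount 4 times higher and 0.72 with one 4 times lower. Etfdh, at -0.92, and Hadhb, at -0.79, were within 1 SE of Ehhadh. With the higher pseudocount Ehhadh was at -0.60, and Etfdh (-0.86), Hadhb (-0.77) and Cpt2 (-0.64) lay further from 0. After quantile normalization Etfdh (-1.07) and Hadhb (-0.98) were likewise further from 0 than Ehhadh (-0.97).

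**Figure D3:**
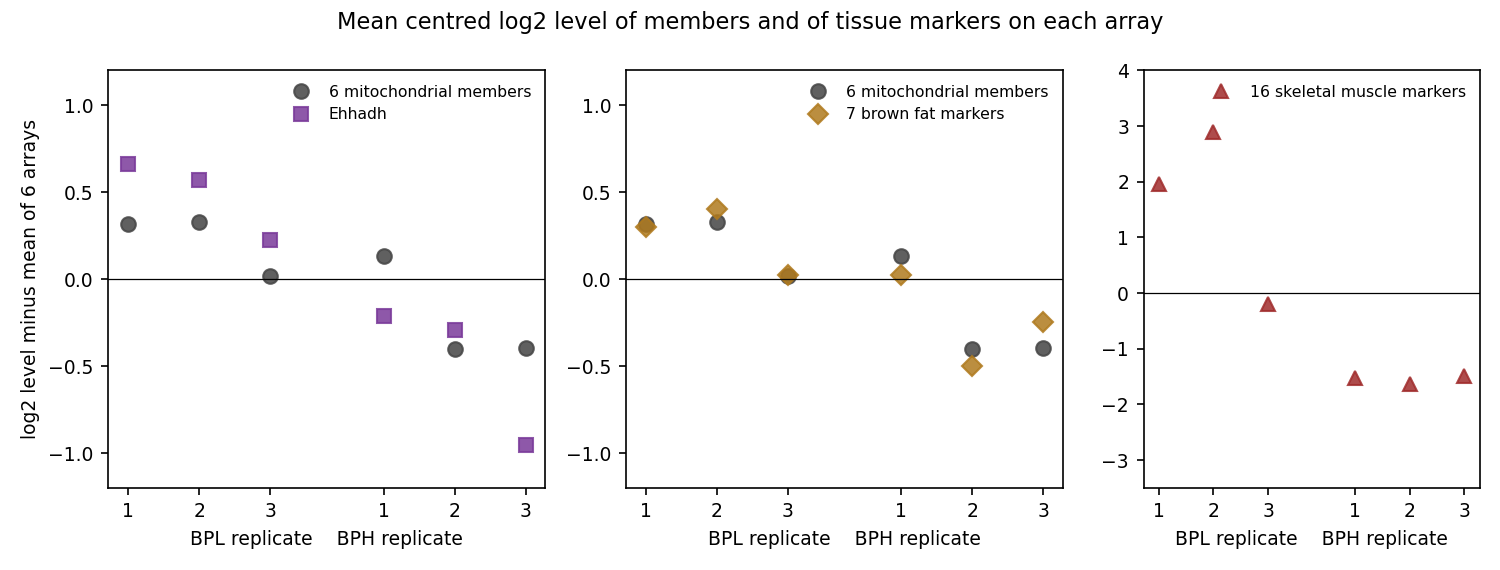
Mean log2 level minus the mean of the 6 arrays, by array: mitochondrial members and Ehhadh (left), the same mitochondrial mean with brown fat markers (middle), and skeletal muscle markers on a wider scale (right). The mitochondrial mean is at 0.02 in BPL replicate 3 and 0.13 in BPH replicate 1. On these arrays the brown fat markers are at 0.02 and 0.02, and the muscle markers at -0.20 and -1.53.

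Among markers of other tissues, the summed signal of skeletal muscle separated the strains, and those of brown fat, general fat, liver and kidney tubule overlapped. The cortex marker Star was at 75933 to 105639 and the medulla marker Th at 12088 to 47889, so adrenal RNA was present on all arrays. Some further probe sets of cortex and medulla markers were dim. Th was called higher in BPH, at 1.28 ± 0.24 (limma adjusted p = 0.023). All 16 listed skeletal muscle markers were measured, and their summed signal was 201316, 470803 and 39378 in BPL replicates 1, 2 and 3 and 12851 to 14101 in BPH. Acta1, the actin of skeletal fibres, was at 12156 to 96330 in BPL and 125 to 376 in BPH. Of 8 brown fat markers 7 were measured, with a summed signal of 175358, 185859 and 135899 in BPL and of 140721, 76615 and 81849 in BPH. Here too BPH replicate 1 stood beside BPL replicate 3. Ucp1, the uncoupling protein of brown fat, ran from 48780 to 64979 in BPL and from 27118 to 46044 in BPH, and was not called (limma adjusted p = 0.097). Of the 7 tested brown fat probe sets, 6 were lower and 1 higher in BPH at an unadjusted limma p under 0.05. Among all tested probe sets, 6.4% were lower and 14.2% higher at that threshold. The median log2 difference of the 7 was -0.68. The 1 called brown fat marker ran the other way. Dio2, a deiodinase that activates thyroid hormone, was at 736, 941 and 1026 in BPL and at 1673, 1962 and 3430 in BPH. Its log2 difference was 1.16 ± 0.25 (limma adjusted p = 0.043). The 9 measured general fat markers, of 11 listed, summed to 159564 to 164288 in BPL and 146595 to 192749 in BPH. Of their 10 tested probe sets 1 was called lower by limma and 0 higher. The called marker was Lipe, at -0.86 ± 0.18 (limma adjusted p = 0.035), while Retn ran the other way, at 0.99 ± 0.25 (limma adjusted p = 0.069). The 4 measured liver markers, of 6 listed, summed to 1324, 30167 and 1935 in BPL and to 1031, 1110 and 7647 in BPH, with albumin (Alb) at 19442 in BPL replicate 2 and 4732 in BPH replicate 3. Of the 6 kidney tubule markers 5 were too dim to test, Kap among them although it reached 3564 in BPH replicate 2. No marker was at 0. The summed medulla markers, 7 of 9 measured, ran from 160128 to 255874 in BPL and from 280414 to 377283 in BPH, and the 8 of 9 measured cortex markers from 551170 to 719425 and from 682911 to 798027. Limma called 9 of 18 tested muscle probe sets lower, and 3 of 9 medulla and 1 of 12 cortex probe sets higher. Most of the called muscle probe sets, those of Acta1 and Mb among them, passed the filter only through their BPL signal. Of all tested probe sets, 0.926% were called lower and 3.18% higher.

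With only BPL replicate 3 kept in BPL, the array with the lowest muscle markers of that strain, the log2 difference was -0.71 for Ehhadh, -0.68 for Etfdh, -0.51 for Hadhb and -0.41 for Cpt2. The members' median was then -0.41, 0 members were called by limma and 0 had an unadjusted p under 0.05, with the lone BPL array assumed to vary like the others. Without BPL replicate 2 and BPH replicate 3, the arrays with the most liver signal, the median was -0.47, with 0 called and 2 at an unadjusted p under 0.05. The share of muscle, brown fat or liver RNA in the members' difference was not tested. In bulk RNA, fewer cells of a type and less RNA per cell cannot be told apart. As a measure of RNA quality, the 3' control probe set of Gapdh minus its 5' one, in log2 units, ran from -0.03 to 0.06 in BPL and from 0.08 to 0.21 in BPH, and that of Actb from 0.79 to 0.90 and from 0.94 to 1.25. RNA quality was not tested as a part of the result.

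The rest of the mitochondrial pathway also held differences of both signs. Of 17 listed genes 12 were measured, by 14 tested probe sets, of which 10 had negative and 4 positive differences, where 39.5% of all tested probe sets were negative. None was called by limma (0 lower, 0 higher), and 5 were lower and 1 higher at an unadjusted p under 0.05, against 6.4% and 14.2% of all. All BPL arrays lay above all BPH arrays for 3 of the 14, against 7.97% of all tested probe sets. The median was -0.29, and -0.40 with the authors' scaling. Slc25a20, the carrier that brings acylcarnitines to Cpt2, had signals of 19812, 20099 and 15092 in BPL and 15955, 9251 and 8305 in BPH, a log2 difference of -0.75 ± 0.26 (limma adjusted p = 0.15). Acads, the short-chain dehydrogenase, differed by -0.73 ± 0.23 (limma adjusted p = 0.13), with its second probe set at -0.29, and Decr1, which handles unsaturated chains, by -0.73 ± 0.28 (limma adjusted p = 0.20). Cpt1a, which makes the carnitine esters and controls entry, differed the other way, like Acadm. Its signals were 11916, 15740 and 20276 in BPL and 25324, 23507 and 20180 in BPH, a log2 difference of 0.55 ± 0.21 (limma adjusted p = 0.20). It was chosen for mention after its value was seen.

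Other peroxisomal genes lay on both sides of 0, in proportions that depended on the scaling. Of 20 listed, 13 were measured, by 16 tested probe sets, 9 with negative and 7 with positive differences and a median of -0.11. With the authors' scaling 12 were negative and 4 positive, with a median of -0.23, and after quantile normalization 13 and 3, with a median of -0.25. The median was 0.0027 without BPL replicate 2 and BPH replicate 3. None was called by limma (0 in either direction, against 4.11% of all tested probe sets). At an unadjusted p under 0.05, 4 were lower and 2 higher, against 6.4% and 14.2% of all. Abcd3, a transporter of fatty acyl-CoA into peroxisomes, had signals of 5313, 6560 and 5424 in BPL and of 15908, 9935 and 9388 in BPH. The strains did not overlap, and the log2 difference was 0.97 ± 0.22 (limma adjusted p = 0.051). Amacr, a racemase for branched chains, was at 208, 1154 and 267 in BPL and at 1808, 1532 and 2188 in BPH, a log2 difference of 1.66 ± 0.41 (limma adjusted p = 0.064). Amacr passed the filter only through its BPH signal. It was called higher without BPL replicate 2, its brightest BPL array, at 2.21 (limma adjusted p = 0.0018). On the other side stood Crat, a carnitine acetyltransferase found in mitochondria as well as peroxisomes, at -0.92 ± 0.26 (limma adjusted p = 0.096) and, for its brighter probe set, -0.61 ± 0.21. Hsd17b4, the second bifunctional enzyme of peroxisomes, was at -0.23, and the thiolase Acaa1a at 0.13, both picked with their values in view. The difference between Ehhadh and these genes was not tested.

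**Figure D4:**
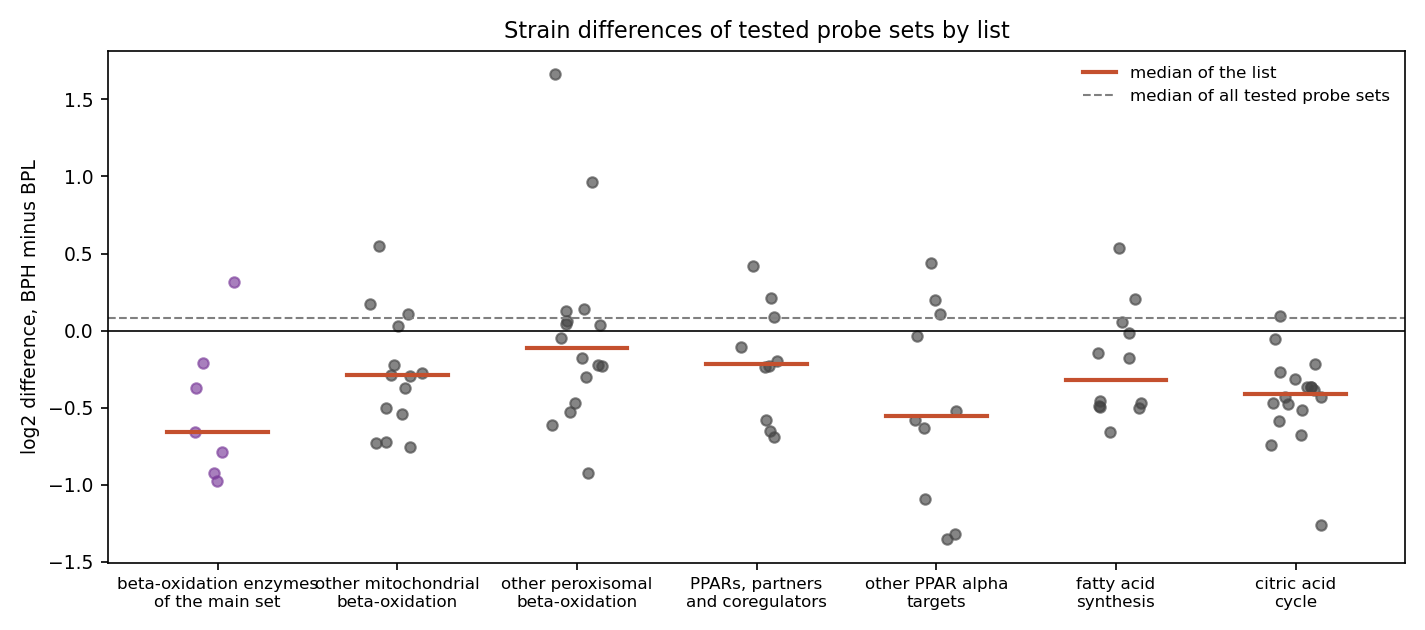
Log2 difference, BPH minus BPL, of every tested probe set (points, spread sideways for legibility) of the beta-oxidation enzymes and of related gene lists, with list medians in orange and the median of all tested probe sets dashed. The medians run from -0.66 for the enzymes to -0.11 for other peroxisomal genes, and Amacr (1.66) and Abcd3 (0.97) are the highest points.

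Among regulators of these genes, Ppara and Esrra were on average higher in BPL. Ppara, the receptor that activates beta-oxidation genes, had signals of 6218, 5525 and 3816 in BPL and of 3785, 2825 and 2969 in BPH. The groups just failed to overlap, and the log2 difference was -0.65 ± 0.21 (limma adjusted p = 0.14). Esrra, an estrogen-related receptor of oxidative tissues, differed by -0.69 ± 0.18 (limma adjusted p = 0.076) and, on a second probe set, by -0.58 ± 0.18. Of the 12 regulators, all measured, 8 were bright enough to test, by 10 probe sets. None was called by limma (0 in either direction, against 4.11% of all tested probe sets), and the median was -0.21. At an unadjusted p under 0.05, 3 were lower and 1 higher, against 6.4% and 14.2% of all. Ppargc1a, a coactivator of both receptors, was dim, at 231 to 469, and was not tested; it too was picked for mention afterwards.

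Of 13 other PPAR alpha target genes 11 were measured, and of their 10 tested probe sets 1 was called lower by limma and 0 higher, against 0.926% and 3.18% of all. The called gene was Ucp3, an uncoupling protein of muscle and brown fat, with signals of 4012, 3698 and 2480 in BPL and 1800, 975 and 993 in BPH. Its log2 difference was -1.32 ± 0.26 (limma adjusted p = 0.029), and it was not called without BPL replicate 1, BPL replicate 2, BPH replicate 2 or BPH replicate 3. The heart and muscle fatty acid binding protein Fabp3 ranged from 5025 to 21143 in BPL and from 2938 to 8550 in BPH, differed by -1.36 ± 0.54 in log2 units (limma adjusted p = 0.21), and was called without BPL replicate 3. The thioesterase Acot1 differed by -1.09 ± 0.35 (limma adjusted p = 0.13) and was called without BPH replicate 1. The median of this list was -0.55, and -0.05 with BPL replicates 1 and 2 left out.

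The neighbouring pathways gave further context. Of 18 tested probe sets of the citric acid cycle, which takes up the acetyl-CoA, 17 had negative differences, against 39.5% of all tested probe sets. The median of the 18 was -0.41 (-0.15 without BPL replicates 1 and 2). Sdhd, part of succinate dehydrogenase, was the 1 probe set called lower by limma, at -1.26 ± 0.24 (adjusted p = 0.024), and 0 were called higher. Of all tested probe sets, 0.926% were called lower and 3.18% higher. The call of Sdhd was lost without BPL replicate 1, BPL replicate 2, BPH replicate 2 or BPH replicate 3. The alpha-ketoglutarate dehydrogenase subunit Dlst, at -0.74 and -0.48 on its 2 probe sets, and Idh3a, at -0.68 ± 0.22, were not called. Fatty acid synthesis had 12 tested probe sets for 9 genes, with a median of -0.32 and 0 called by limma. Of the 12, 9 were negative, and 6 were lower and 1 higher at an unadjusted p under 0.05, against 6.4% and 14.2% of all. Fasn, the fatty acid synthase, was at 79583, 79960 and 68482 in BPL and at 52473, 45162 and 46559 in BPH, a log2 difference of -0.66 ± 0.15 (limma adjusted p = 0.052). The elongase Elovl6 differed by -0.50 ± 0.16 and Elovl5 by 0.53 ± 0.20, neither called.  Of 5 ketone body genes only Oxct1 was measured, at 0.04, and at -0.07 with the authors' scaling.

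The genes whose pattern over the 6 arrays was most like that of the mitochondrial members included others of the same pathway. Likeness was the Pearson correlation of log2 signals with the mean centred level of the 6 mitochondrial members, computed for 6706 probe sets of other genes, of which 160 exceeded 0.9. All points share the same 6 RNA samples and their scaling. Etfa, a subunit of electron transfer flavoprotein, which delivers electrons to Etfdh, came first with r = 0.995 over 6 arrays. Its signals were 23087, 23567 and 19097 in BPL and 20396, 15643 and 14968 in BPH. Slc25a20 came next (r = 0.992), followed by Mtch2 (0.989), the succinyl-CoA ligase subunit Suclg1 (0.989), Crat (0.989), Mtres1 (0.988), the sorting nexin Snx2 (0.988) and Cox8b (0.987), a cytochrome oxidase subunit of brown fat, heart and muscle that is also on the brown fat marker list. Within strains, after each strain's mean was removed, these 8 had r from 0.973 to 0.989. They were picked by r over the same 6 arrays, so these within-strain values are not independent of that choice. Among the 7 tested members themselves, Cpt2 and Hadhb had r = 0.992 and 0.988 with the mean of the others, Etfdh 0.90, Acaa2 0.877, Ehhadh 0.862, Acadl 0.671 and Acadm -0.26. Within strains the 21 pairs of members had r from 0.283 to 0.999, pairs with Acadm included, whereas over all 6 arrays the lowest r was -0.41.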

How the data were processed

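Total RNA of adrenal glands was hybridised to Affymetrix mouse arrays, 3 per strain. The values deposited by the authors are linear signal intensities; the submitters' processing notes name MAS5 as the tool. MAS5's version, settings and target scale: not given in the sources used here. Of 12488 probe sets, 66 controls were left out. The platform annotation gave 1 symbol for 10833 of the rest, several for 396 and none for 1193.

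Array medians differed by 21.0% (945 to 1144), so arrays were scaled to their mean, 1040, and values were log2(signal + 203), 203 being the 20th percentile of all signals. For dim genes this understates differences. After the lowest 40% by mean were left out, 7453 probe sets were compared, BPH minus BPL, by lmFit and eBayes of limma 3.58.1 in R 4.3.3 (2-sided, 4 residual and 4.50 prior degrees of freedom), with Benjamini-Hochberg adjustment and a threshold of 0.05. Errors of differences are standard errors from this model. Where a gene had several tested probe sets, per-gene values use the one with the highest mean. The number of arrays limits the precision. The procedure was tested on simulated data. Any pair of arrays had at most 1 value in common.

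The members, gene lists and tests were chosen with earlier results of these data known. Named genes were all members, called probe sets and the 3 largest absolute differences of each pathway list, the 8 genes most like the mitochondrial members, and bright or fixed tissue markers. Promoter sequences come from RefSeq on GRCm38.p6. Alternatives were quantile normalization, the authors' scaling, a pseudocount 4 times higher or lower, no filter or a 60% filter, a replicate block, a trended and robust variance, leaving out each array, and BPL replicates 1 and 2 left out. Leaving out BPL replicate 2 and BPH replicate 3 was added after the data were seen.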

Additional observations from a re-analysis of the deposited data

How the results depend on the processing

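The log2 difference of Cpt2, Hadhb, Acaa2, Etfdh and Ehhadh stayed negative, and that of Acadm positive, under all alternatives in which they were tested, and Acadl turned to 0.018 without BPH replicate 2 and to 0.059 without BPL replicates 1 and 2. No member was called by limma in the reported setting, and 1 was called after quantile normalization, with the authors' scaling, with the higher pseudocount, with the trended and robust variance and with the replicate block, 2 with the stricter filter, and 0 to 1 with each array left out. Their median was -0.31 with no filter (10 probe sets), -0.41 without BPL replicates 1 and 2, -0.47 without BPL replicate 2 and BPH replicate 3, and -0.83 to -0.55 with each array left out. The gap between mitochondrial members and Ehhadh was 0.37 after quantile normalization, 0.18 and 0.72 with the higher and lower pseudocount, 0.40 without BPL replicate 2 and BPH replicate 3, and 0.39 to 0.72 with each array left out.

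Counts of called probe sets moved as follows. For the citric acid cycle, 1 in the reported setting, they were 2 after quantile normalization and with the authors' scaling, 0 with no filter, without BPL replicates 1 and 2 and without BPL replicate 2 and BPH replicate 3, and 0 to 2 with each array left out. For PPAR alpha targets, 1 in the reported setting, they were 0 with no filter and in both settings that leave out 2 arrays, and 0 to 2 with each array left out. For fatty acid synthesis (Fasn) and for the regulators (Esrra), 0 in the reported setting, they were 1 after quantile normalization, with the authors' scaling, with the higher pseudocount, with the stricter filter and with the trended and robust variance, and the regulators had 0 to 1 with each array left out. For other peroxisomal genes they were 2 with the higher pseudocount and with the trended and robust variance (Abcd3 and Amacr, both higher in BPH). With the stricter filter they were 2 (Abcd3 higher, Crat lower). They were 1 without BPL replicate 2 and BPH replicate 3 (Amacr, higher), and 0 to 1 with each array left out. For other mitochondrial genes they were 1 after quantile normalization (Hadh) and 0 to 1 with each array left out. The cause of these shifts was not tested.

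The labels give both strains the replicate numbers 1 to 3 but no shared litter or batch. Deviations of same-numbered arrays from their strain means correlated at -0.06, -0.05 and -0.18. No array correlated best with its own number, so the numbers were not taken as pairs. With the replicate block, 239 of all probe sets were called, against 306, and Ehhadh was called (limma adjusted p = 0.037).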
